A study of Mus musculus with 12 samples.

Results

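The genes described here are 10 mRNAs that restrain mTORC1 or pass amino acid signals to it, chosen by symbol from a fixed list (Sesn1, Sesn2, Sesn3, Ddit4, Deptor, Tsc1, Flcn, Rragd, Eif4ebp1 and Eif4ebp2), out of 56980 genes in the deposited table. All 10 were found, each in 1 row, and all 10 passed the filter on low counts. Bulk RNA sequencing measured them in the livers of 12 obese males of the leptin-deficient strain B6.Cg-Lepob/J (ob/ob, genotype Lep-/-), 6 on a low protein diet (LPD, 5% of energy as protein) and 6 on a standard protein diet (SPD, 25%). The mice were 8 weeks old when the diets began and 11 weeks old at harvest, after 3 weeks with free access to food. Every mouse in both groups lacks leptin and is obese, so no lean liver is part of the comparison. The series title names amino acids as a carbon source for fat synthesis in liver, and the diet comparison is the one its labels give.

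mTORC1 is a kinase complex on the lysosome that drives protein and lipid synthesis when amino acids and growth factors are present. Amino acids reach it through the Rag GTPases. GATOR1 switches the Rags off, GATOR2 holds GATOR1 back, and the sestrins bind GATOR2, with Sestrin2 acting as a leucine sensor. Growth factors and stress reach it through the TSC complex, which DDIT4 (REDD1) activates. DEPTOR binds mTOR itself, and the 4E-BP proteins are substrates that block cap-dependent translation until mTORC1 phosphorylates them. In cells short of amino acids the transcription factor ATF4 induces Sesn2, Ddit4 and, in several cell types, Eif4ebp1. All values below are mRNA levels, and neither mTORC1 activity nor protein was measured.

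Total counts per library were 19404340 to 23681408 in LPD livers and 19374676 to 23710930 in SPD livers. Along the first principal component (47.1% of variance) all LPD livers lay on one side and all SPD livers on the other, with LPD replicates 2 and 5 farthest out. For LPD replicate 1, the treatment and description labels name the 25% diet, against its title and library code; it was kept in LPD by its title. Library codes begin LP4 or LP5 in LPD and SP1 or SP2 in SPD, with no code shared by the diets, so a batch marked by the codes and the diet cannot be told apart. Of 7 hepatocyte markers, 4 were higher in LPD and 0 lower, and their summed level was 62996 to 86566 CPM in LPD and 72497 to 81092 CPM in SPD, with albumin the most abundant. Of 6 lipid-associated macrophage markers, 4 were lower in LPD and 0 higher, with a summed level of 91.3 to 257 CPM in LPD and 427 to 695 CPM in SPD. Trem2 and Gpnmb of that list were not called. The largest falls in mean CPM were those of Spp1 (63.3 in LPD, 246 in SPD) and Fabp5 (7.38 in LPD, 79.9 in SPD). Kupffer cell markers (1 of 6 higher, 1 lower) and stellate cell markers (0 of 7 higher, 3 lower) had overlapping sums, and no marker of any list was at 0 in every library. Beside these counts, 20.7% of all 13768 genes tested were called higher in LPD and 19.2% lower. In bulk liver, fewer cells of a type and less RNA per cell cannot be told apart.

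To show the DNA in front of the genes that moved most, up to 250 bases before the RefSeq start are printed for Ddit4 and Sesn2, with the largest rises, and for Sesn3 and Rragd, with the largest falls. Bases inside the outer bounds of the GENCODE M21 gene were left off the ends of Ddit4 and Sesn2. The RefSeq start of Sesn3 lies within its GENCODE gene, as does the whole stretch printed, which was not shortened. Exons were not looked at. The sequences are RefSeq's, from GRCm38.p6, and read 5′ to 3′ on the gene's strand. Capitals mark the CCAAT box, the site of the general factor NF-Y, as CCAAT or, on the other strand, ATTGG.
Ddit4 (chr10:59951835-59952020, minus strand): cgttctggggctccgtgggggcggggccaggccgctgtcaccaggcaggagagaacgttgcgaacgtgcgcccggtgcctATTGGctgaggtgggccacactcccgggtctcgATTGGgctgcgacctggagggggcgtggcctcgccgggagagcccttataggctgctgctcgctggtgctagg
Sesn2 (chr4:132510502-132510706, minus strand): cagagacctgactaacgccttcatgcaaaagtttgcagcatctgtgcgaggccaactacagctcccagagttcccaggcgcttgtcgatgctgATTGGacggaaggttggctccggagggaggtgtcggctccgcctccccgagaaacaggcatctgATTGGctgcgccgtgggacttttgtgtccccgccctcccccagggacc
Sesn3 (chr9:14276051-14276300, plus strand): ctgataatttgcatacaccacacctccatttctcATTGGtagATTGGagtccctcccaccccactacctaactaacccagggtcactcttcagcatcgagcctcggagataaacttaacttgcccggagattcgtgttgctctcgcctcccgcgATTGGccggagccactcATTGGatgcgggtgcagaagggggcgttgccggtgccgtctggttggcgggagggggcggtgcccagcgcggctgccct
Rragd (chr4:32982748-32982997, plus strand): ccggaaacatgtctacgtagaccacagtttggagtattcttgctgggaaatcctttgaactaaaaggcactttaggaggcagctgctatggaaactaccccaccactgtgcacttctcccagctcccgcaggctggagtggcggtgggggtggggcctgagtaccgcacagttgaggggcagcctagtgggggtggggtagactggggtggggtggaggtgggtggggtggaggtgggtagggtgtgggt

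Ddit4 and Sesn2 held 2 CCAAT boxes each, Sesn3 held 4 and Rragd 0. In the full 250 bases before the start, at least 1 was held by 33.8% of all 32851 RefSeq promoters, at least 2 by 10.1% and at least 3 by 2.79%, and this motif was picked after the sequences were seen. GC content of the full 250 bases was 70.0% for Ddit4, 63.2% for Sesn2, and 59.6% for both Sesn3 and Rragd, against a median of 52.4% over all promoters. RefSeq promoters were matched for 8 of the 10 genes (9 starts, since Sesn1 has 2); Deptor and Eif4ebp1 had none in the table. Over the 300 bases from 250 before to 50 after the start, both strands, the composite site of C/EBP and ATF4 (TGATGNAA) was in 0 of the 9 and in 3.97% of all promoters. Its form TGATGCAA, which the first motif contains, was in 0 and 0.895%. The E-box CACGTG, bound by TFEB and TFE3, was in 0 of the 9 and 7.15% of all, and TCACGTGA, which contains it, in 0 and 0.974%. The CREB and ATF site TGACGTCA was found in Flcn and in 1.79% of all, and the FOXO site GTAAACA in the upstream start of Sesn1 and in 3.65% of all. A match is only a match of letters, and a motif missing here may lie outside the window.

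Low protein feeding was accompanied by higher mRNA of Ddit4, Sesn2 and Deptor and lower mRNA of Sesn3, Rragd and Sesn1. These are 3 of 10 called higher and 3 of 10 called lower, by edgeR's quasi-likelihood test at an adjusted p under 0.05. Over all 13768 genes tested 20.7% were called higher, 19.2% lower and 39.9% either way, so the count alone is not read as a result about these 10. Ddit4 had the 33rd largest rise of all genes tested and Sesn2 the 87th, while Sesn3 had the 43rd smallest p. LPD and SPD livers had separate ranges for 5 of the 10 (Ddit4, Sesn2, Deptor, Sesn3 and Rragd), against 19.9% of all genes tested. The median log2 fold change (LPD over SPD) of the 10 was -0.066, and that of all genes tested -0.00059.

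**Figure D1:**
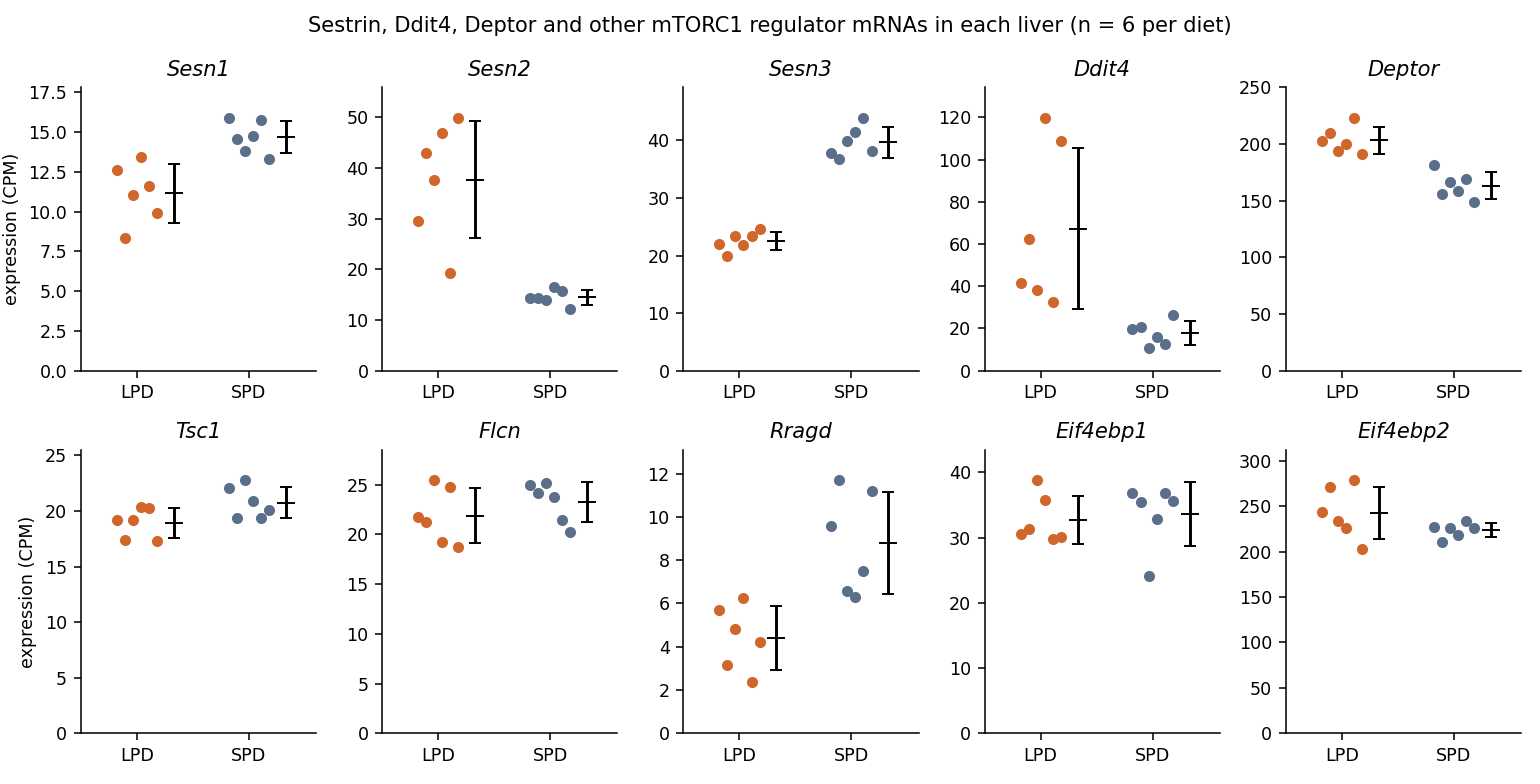
Expression of each of the 10 genes in CPM (counts per 1000000 TMM-scaled library counts) in every liver, LPD left and SPD right, with mean ± SD (n = 6 per diet) beside the points; each vertical axis starts at 0. All 6 LPD livers lie above all 6 SPD livers for Sesn2, Ddit4 and Deptor, and below them for Sesn3 and Rragd.

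The sestrins moved in opposite directions. Sesn2 (ENSMUSG00000028893, chromosome 4, 132492032 to 132510501, minus strand, GRCm38) had 19.2, 40.3 and 49.97 CPM as the lowest, median and highest of the LPD livers, against 12.1, 14.3 and 16.5 CPM in SPD livers. Every LPD liver was above every SPD liver, and LPD replicate 5, at 19.2 CPM, came nearest to the SPD range. The rise was 2.61-fold (log2 fold change 1.38 ± 0.18 SE, adjusted p = 3.01e-05, n = 6 per diet). Without LPD replicate 5 it was 1.52 ± 0.12 on the log2 scale.

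Sesn3 (ENSMUSG00000032009, chromosome 9, 14275067 to 14333101, plus strand), which FOXO factors are known to induce, went the other way. Its lowest, median and highest levels were 19.96, 22.7 and 24.6 CPM in LPD livers and 36.7, 39.0 and 43.9 CPM in SPD livers. The groups lay far apart relative to their spread, and no other gene of the 10 had so small a p. The log2 fold change was -0.82 ± 0.061 (adjusted p = 2.14e-07).

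Sesn1 (ENSMUSG00000038332, chromosome 10, 41809935 to 41908424, plus strand), a p53 target, had 8.31, 11.3 and 13.4 CPM in LPD livers as lowest, median and highest, and 13.3, 14.6 and 15.9 CPM in SPD livers. Here 5 of 6 LPD livers were below all SPD livers, and LPD replicate 4 just overlapped the lowest SPD liver. The fall was smaller than that of Sesn3 (log2 fold change -0.40 ± 0.10, adjusted p = 0.00590). It was not called when only libraries coded LP4 or SP1 were used (-0.38, adjusted p = 0.0568; 0.00100 to 0.0568 over all alternatives).

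Per kilobase of the deposited gene length, the sestrins stood apart in LPD livers and close together in SPD livers. In LPD livers Sesn2 averaged 10.8 ± 3.34 CPM per kilobase (SD, n = 6), above Sesn1 at 2.93 ± 0.486 and Sesn3 at 2.47 ± 0.175, and the ranges of Sesn1 and Sesn3 overlapped. In SPD livers Sesn3 averaged 4.35 ± 0.294, Sesn2 4.17 ± 0.436 and Sesn1 3.85 ± 0.268 CPM per kilobase, with overlapping ranges. Sesn2 made up 49.6% to 73.9% of the sestrin mRNA of LPD livers and 31.3% to 36.1% of that of SPD livers, both per length. The sum of the sestrins was 11.1 to 19.7 CPM per kilobase in LPD livers and 11.2 to 13.5 in SPD livers. The diets thus had separate ranges for the Sesn2 share. For the sum the ranges overlapped through LPD replicate 5 alone, the lowest of all 12 livers. The other LPD livers had sums of 14.2 CPM per kilobase or more, above every SPD liver. Median sums were 16.5 CPM per kilobase in LPD and 12.2 in SPD.

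**Figure D2:**
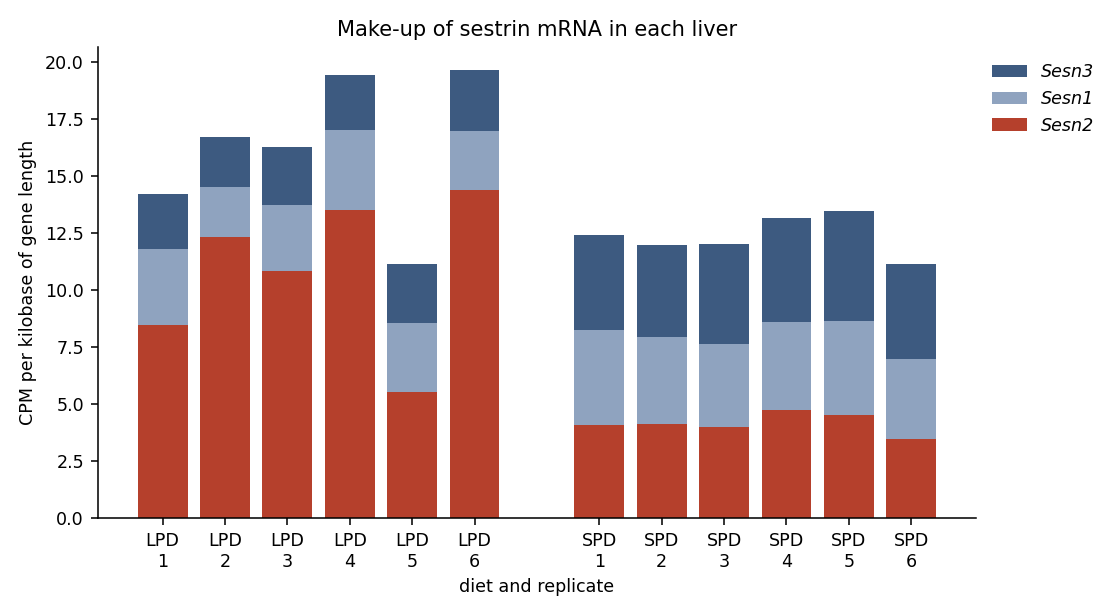
Stacked bars of Sesn2 (bottom), Sesn1 and Sesn3 (top) in each liver, in CPM per kilobase of gene length, LPD livers left and SPD livers right. Sesn2 is 49.6% or more of the bar in every LPD liver and 36.1% or less in every SPD liver.

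On the Rag side of the pathway, Rragd fell. RagD (ENSMUSG00000028278, chromosome 4, 32983037 to 33022180, plus strand) pairs with RagA or RagB to bring mTORC1 to the lysosome, and its gene is known as a target of TFEB and TFE3. Lowest, median and highest levels were 2.36, 4.52 and 6.25 CPM in LPD livers and 6.28, 8.53 and 11.7 CPM in SPD livers. The groups did not overlap, but the highest LPD liver, replicate 4, was only just below the lowest SPD liver. The log2 fold change was -0.99 ± 0.22 (adjusted p = 0.00240), from 47 to 241 counts per library, the thinnest of the 10. LPD replicates 5 and 2 were the lowest for Rragd, and the same livers had the lowest summed level of lipid-associated macrophage markers (91.3 and 102.5 CPM). The part of that marker list in the Rragd fall was not tested; without both livers Rragd was at -0.74 ± 0.19 (adjusted p = 0.00810).

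Flcn (ENSMUSG00000032633, chromosome 11, 59791408 to 59810016, minus strand) encodes folliculin, which turns RagC and RagD to their active form. It had 18.7 to 25.5 CPM in LPD livers and 20.2 to 25.1 CPM in SPD livers, almost the same range. It did not pass the test (-0.091 ± 0.084, adjusted p = 0.414). Of the LPD livers 1 lay above and 2 below all SPD livers.

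On the stress branch, Ddit4 had the largest change of the 10. Ddit4 (ENSMUSG00000020108, chromosome 10, 59949669 to 59951834, minus strand) had 32.4, 52.0 and 119.9 CPM as lowest, median and highest in LPD livers and 10.7, 17.8 and 26.3 CPM in SPD livers. All LPD livers were above all SPD livers. Replicates 4 and 6 of LPD stood high at 119.9 and 109 CPM, while the other 4 were at 32.4 to 62.3 CPM. The rise was 3.81-fold (1.93 ± 0.32 on the log2 scale, adjusted p = 0.000272). Red blood cell markers were also highest in LPD replicate 4, with a sum of 2128 CPM against 228 to 373 CPM in the other LPD livers and 923 to 1687 CPM in SPD livers; LPD replicate 6 had 373 CPM, and none of these 5 markers was called. Without LPD replicate 4 Ddit4 was at 1.69 ± 0.29 (adjusted p = 0.000497).

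Tsc1 (ENSMUSG00000026812, chromosome 2, 28641228 to 28691167, plus strand), a scaffold of the complex that DDIT4 activates, had 17.3 to 20.3 CPM in LPD livers and 19.4 to 22.8 CPM in SPD livers. The groups overlapped, with 4 LPD livers below all SPD livers. It did not pass the test (-0.13 ± 0.063, adjusted p = 0.110).

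Deptor (ENSMUSG00000022419, chromosome 15, 55112317 to 55259271, plus strand), the inhibitor within the mTOR complexes, rose by a small and even step. Its lowest, median and highest levels were 191, 201 and 223 CPM in LPD livers and 149, 163 and 182 CPM in SPD livers. No livers overlapped, and the coefficient of variation was 5.80% in LPD and 7.10% in SPD, against 56.6% and 32.2% for Ddit4. The log2 fold change was 0.32 ± 0.058 (adjusted p = 0.000591). A transcript on the opposite strand, Gm9920, lies within the gene at a mean of 0.452 CPM, and no source used here says if counting took strand into account.

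The 4E-BP substrates did not pass. Eif4ebp1 (ENSMUSG00000031490, chromosome 8, 27260329 to 27276674, plus strand) had 29.8, 30.9 and 38.8 CPM in LPD livers as lowest, median and highest and 24.2, 35.6 and 36.9 CPM in SPD livers. The ranges overlapped, with SPD replicate 3 below all LPD livers and LPD replicate 3 above all SPD livers. It did not pass (-0.041 ± 0.099, adjusted p = 0.772), and the estimate was positive without LPD replicates 2 and 5 (0.0074). Eif4ebp2 (ENSMUSG00000020091, chromosome 10, 61428491 to 61452661, minus strand), the highest of the 10 per kilobase in both diets, had 203, 239 and 279 CPM in LPD livers and 211, 226 and 234 CPM in SPD livers. LPD livers spread to both sides of the SPD range, 3 above it and 1 below, and the gene did not pass (0.12 ± 0.071, adjusted p = 0.205). Per length Eif4ebp2 was 2.08 to 3.23 times Eif4ebp1 in LPD livers and 2.05 to 3.23 times in SPD livers.

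Ranked by CPM per kilobase, the order in LPD livers was Eif4ebp2 (42.0 ± 4.89), Ddit4 (38.3 ± 21.7), Deptor (23.8 ± 1.38), Eif4ebp1 (16.4 ± 1.86), Sesn2 (10.8 ± 3.34), Flcn (7.90 ± 1.01), Sesn1, Sesn3, Tsc1 (2.46 ± 0.174) and Rragd (0.873 ± 0.295). In SPD livers it was Eif4ebp2 (38.7 ± 1.39), Deptor (19.1 ± 1.36), Eif4ebp1 (16.8 ± 2.43), Ddit4 (10.1 ± 3.25), Flcn (8.41 ± 0.720), Sesn3, Sesn2, Sesn1, Tsc1 (2.69 ± 0.183) and Rragd (1.74 ± 0.467). Ddit4 thus ranked 2 in LPD and 4 in SPD, and Sesn2 ranked 5 in LPD and 7 in SPD. In LPD livers the Ddit4 range took in those of Eif4ebp2, Deptor and, at its low end, part of that of Eif4ebp1; Flcn lay within the Sesn2 range, and Sesn1, Sesn3 and Tsc1 overlapped. In SPD livers Eif4ebp1 overlapped Deptor and Ddit4, Flcn lay within the Ddit4 range, and the sestrins overlapped each other. Rragd stood below all others in both diets with no overlap.

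**Figure D3:**
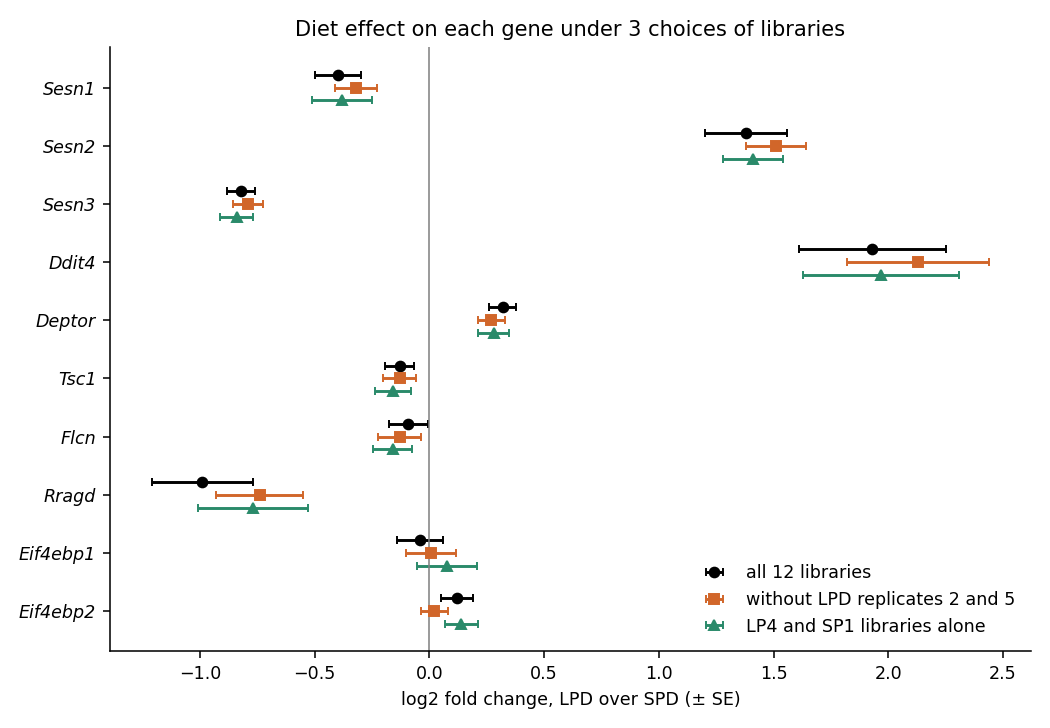
Log2 fold change (LPD over SPD) ± SE of each of the 10 genes with all 12 libraries (black circles), without LPD replicates 2 and 5 (orange squares), and with LP4 and SP1 libraries alone (green triangles). Ddit4 and Sesn2 lie right of 0 and Rragd, Sesn3 and Sesn1 left of 0 in all of them, while Eif4ebp1 changes side.

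Within the LPD group the 2 strongest risers ranked the livers alike. LPD replicate 5 was the lowest for both Sesn2 and Ddit4, and replicates 6 and 4 were the highest pair for both. SPD livers did not share this, since SPD replicate 6 was lowest for Sesn2 (12.1 CPM) and highest for Ddit4 (26.3 CPM). Deviations of these genes from their diet means correlated at r = 0.60 over all 12 libraries. Of the 10 ATF4 axis genes that rose, 6 were lowest in LPD replicate 5 and 9 highest in replicate 4 or 6. The 4 that were lowest in another liver were Atf4 and Fgf21 (replicate 3), Ddit3 (replicate 1) and Atf5 (replicate 6). Members of the list that were not called were mixed. Vldlr was lowest in replicate 5 and highest in 4, and Stbd1 lowest in 3 and highest in 4. Gpt2 was lowest in replicate 2 and highest in 6, and Cebpb lowest in 6 and highest in 1. Trib3, a pseudokinase and ATF4 target, had 7.46-fold higher mean CPM in LPD livers, with replicate 5 the lowest at 2.02 above the SPD mean on the log2 scale and replicate 4 the highest at 3.58. On the same scale Sesn2 was 0.41 above in replicate 5 and 1.79 in replicate 6, and Ddit4 0.87 above in replicate 5 and 2.76 in replicate 4. The liver order was not particular to the ATF4 axis. Eif4ebp3 and the substrate gene Lpin1 (0.68 ± 0.18 between diets) were also lowest in LPD replicate 5 and highest in replicate 4. Igfbp1 was lowest in replicate 5 and highest in replicate 6. Foxo1 (lowest in replicate 2) and Fkbp5 (lowest in replicate 1) had other orders. Whether ATF4 underlies the order was not tested.

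**Figure D4:**
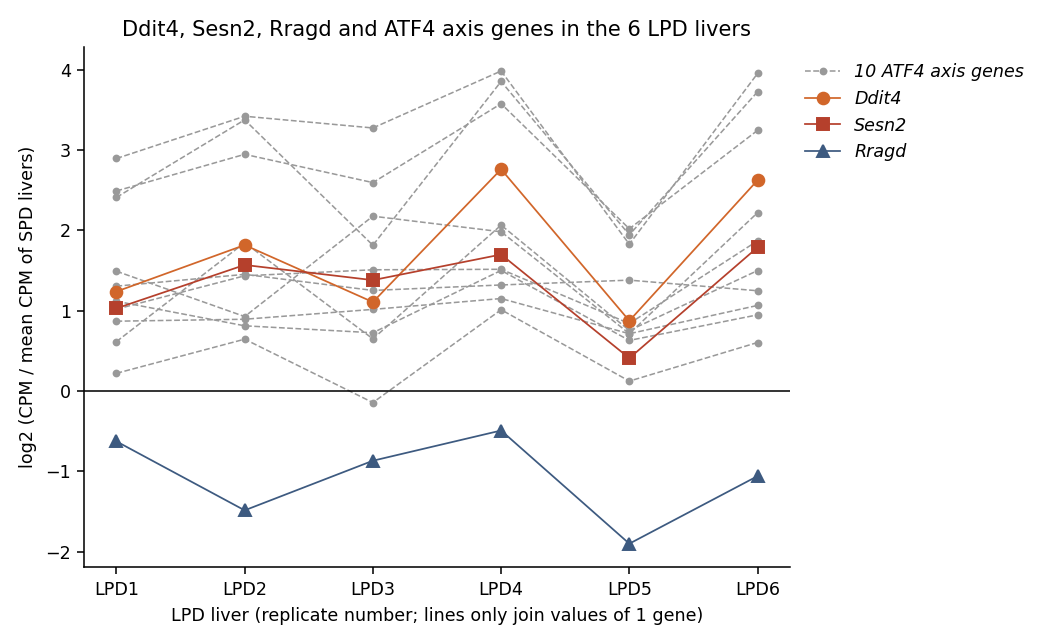
Level of Ddit4, Sesn2 and Rragd (solid) and of all 10 ATF4 axis genes called higher (dashed, grey) in each LPD liver, as log2 of CPM over the mean CPM of SPD livers, which is 0. LPD replicate 5 is the lowest liver for Ddit4, Sesn2 and Rragd and for 6 of the 10 grey genes, and another liver is the lowest for the other 4.

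Of 14 genes of the ATF4 axis 10 rose and none fell (0 at an unadjusted p under 0.05 by edgeR, DESeq2 or limma-voom). The 4 others did not pass, and the median log2 fold change was 1.16. Shares over all genes tested were 20.7% called higher and 19.2% called lower. Many genes of the list were already known to rise in these data. Atf4 itself rose less, at 88.3 ± 25.9 CPM in LPD livers and 64.2 ± 5.44 CPM in SPD livers (0.46 ± 0.15, adjusted p = 0.0227), a call lost by limma-voom (adjusted p = 0.0681) and when only libraries coded LP4 or SP1 were used (0.0931). Atf5 (1.33 ± 0.071), Trib3 (2.90 ± 0.22) and the amino acid transporter chain Slc3a2 (0.96 ± 0.077) had the smallest adjusted p of that list. Sesn2, at 1.38, lay near the list's median, Ddit4, at 1.93, above it, and Eif4ebp1, at -0.041, below all 10 that rose.

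Of 63 other genes of the mTORC1 pathway 61 were tested, and 15 rose, 8 fell and 38 were not called (median 0.041). Over all genes tested 20.7% rose and 19.2% fell (median -0.00059), so the share called in the pathway was close to that background. A fitted change of 2-fold or more was seen for 2 of them, Eif4ebp3 and Ddit4l. These are paralogs of genes described above. Eif4ebp3, the third 4E-BP, averaged 6.83 ± 1.42 CPM in LPD livers and 2.53 ± 1.02 CPM in SPD livers, with no overlap (1.43 ± 0.22, adjusted p = 0.000132). Ddit4l (REDD2), the paralog of Ddit4, averaged 1.07 ± 0.382 CPM in LPD livers and 2.69 ± 0.887 CPM in SPD livers (-1.33 ± 0.27, adjusted p = 0.00119), and the groups overlapped. So within each of the sestrin, 4E-BP and REDD families the members differed in direction or in call.

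Over all genes tested 20.7% were called higher and 19.2% lower, so the counts of the short lists in this paragraph are not read as results. Upstream of the Rags, 1 of 5 sensor genes fell and 0 rose. The leucine and S-adenosylmethionine sensors Lars, Sar1b and Bmt2 did not pass, nor did the arginine sensor Castor1, and none of these 4 had an unadjusted p under 0.05 by edgeR. The gene that fell was Castor2, the paralog of Castor1, at 3.03 ± 0.655 CPM in LPD livers and 5.42 ± 0.436 CPM in SPD livers (-0.84 ± 0.14, adjusted p = 0.000223). GATOR1, which restrains the Rags, had 0 of 3 called by edgeR, DESeq2 or limma-voom, and 1 of 3, Nprl2, at an unadjusted p under 0.05 in each. GATOR2 had 2 of 5 higher, Mios (0.33 ± 0.083) and Seh1l (0.13 ± 0.045), and KICSTOR 1 of 3, Itfg2 (0.57 ± 0.10, adjusted p = 0.000542). The Ragulator had 1 of 5 lower, Lamtor4 (-0.26 ± 0.083). With LP4 and SP1 libraries alone Mios (adjusted p = 0.142), Seh1l (0.0742) and Lamtor4 (0.160) were not called, and Seh1l and Lamtor4 also lost the call when some single libraries were left out.

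Around the Rags, Rragc, the paralog of Rragd, fell slightly, to 67.9 ± 2.32 CPM in LPD livers against 75.3 ± 3.54 CPM in SPD livers (-0.15 ± 0.046, adjusted p = 0.0175), a call lost without LPD replicates 2 and 5 (adjusted p = 0.0782) as well as with no filter on low counts (0.0660) and with LP4 and SP1 libraries alone (0.0975). The folliculin partners Fnip1 (-0.015 ± 0.089) and Fnip2 (-0.24 ± 0.10, adjusted p = 0.0830) did not pass, although Fnip2 was called lower by limma-voom (adjusted p = 0.0273) and without LPD replicate 5 (0.0063). Rragb, at 0.0716 CPM in LPD livers and 0.0936 CPM in SPD livers, was too low to test. The lysosomal amino acid carrier Slc36a1 was lower (-0.25 ± 0.061, adjusted p = 0.00393), 1 of 4 in its list, beside 19.2% called lower over all genes tested.

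In the complexes themselves, Mtor fell to 75.99 ± 4.05 CPM in LPD livers, against 97.1 ± 10.9 CPM in SPD livers (-0.35 ± 0.070, adjusted p = 0.00105), while Rptor, the subunit that defines mTORC1, did not pass (-0.025 ± 0.068, adjusted p = 0.801). Of 10 subunit and assembly genes 3 rose, among them Akt1s1 (PRAS40, another inhibitor of the complex; 0.25 ± 0.065) and the assembly factor Tti1 (0.29 ± 0.071), with Tti2 (0.41 ± 0.12) the third, and 1, Mtor, fell. Tsc2, the partner of Tsc1, fell by a small amount (-0.17 ± 0.051, adjusted p = 0.0148). For the counts in this paragraph, the shares over all genes tested were 20.7% called higher and 19.2% called lower. Downstream, 9 of 18 substrate and cap-binding genes rose and 1, the autophagy kinase gene Ulk1 (-0.21 ± 0.070), fell. Larp1 (0.38 ± 0.060), ribosomal protein Rps6 (0.37 ± 0.065), Eif4e (0.13 ± 0.043) and Tfeb (0.37 ± 0.12) were among those that rose. Of these, Eif4e was not called with LP4 and SP1 libraries alone (adjusted p = 0.171), with no filter on low counts (0.0725) or without LPD replicates 2 and 5 (0.0853). Tfeb was not called with LP4 and SP1 libraries alone (0.283), without SPD replicate 5 (0.0507) or without LPD replicate 5 (0.0506).

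**Figure D5:**
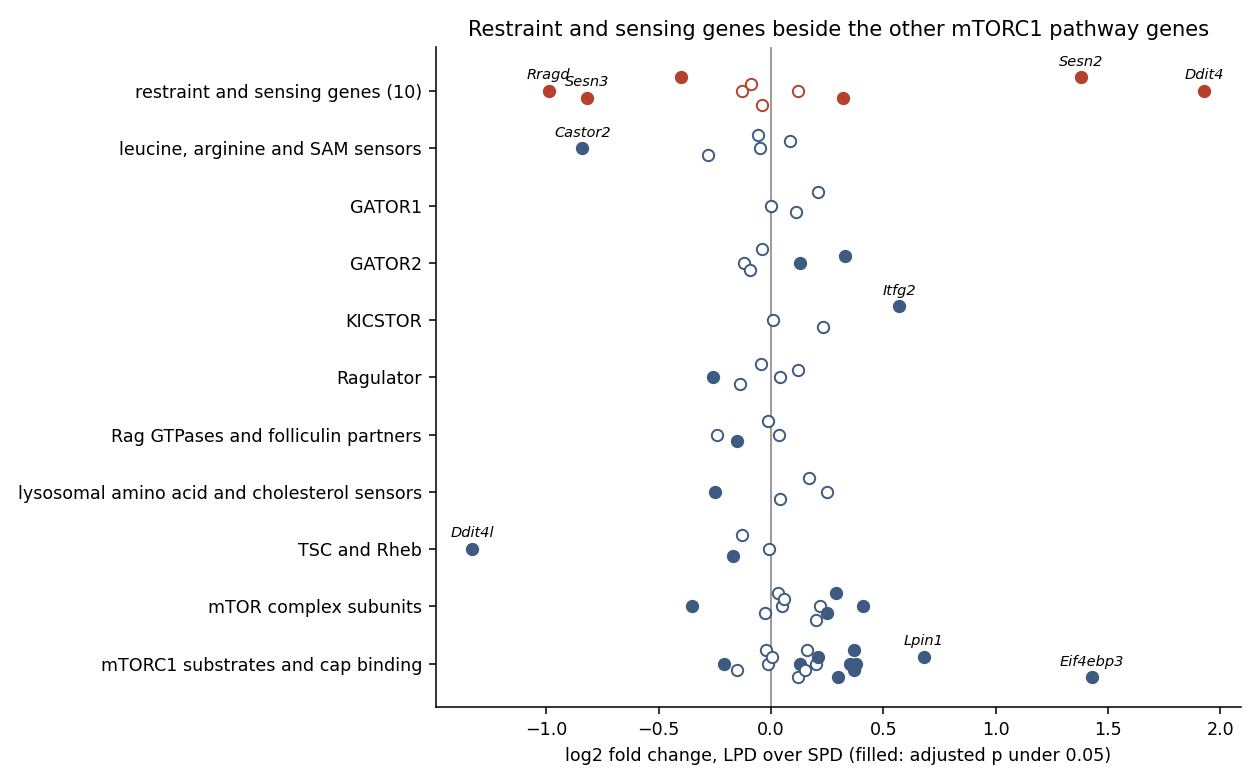
Log2 fold change (LPD over SPD) of the 10 restraint and sensing genes (red, top line) and of the other tested mTORC1 pathway genes by complex (blue); filled points passed at an adjusted p under 0.05, and called genes at 0.5 or more from 0 are named. Vertical scatter within a line only separates points. Ddit4, Sesn2 and Eif4ebp3 lie beyond 1, Ddit4l beyond -1, and most other genes near 0.

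Targets of transcription factors that are known to act on some of the 10 in other cells were set beside them. For these counts, the shares over all genes tested were 20.7% called higher and 19.2% called lower. Of 14 lysosomal targets of TFEB and TFE3, 9 fell, 0 rose (0 at an unadjusted p under 0.05 by edgeR, DESeq2 or limma-voom) and 5 did not pass (median -0.25). Among those that fell were Ctsd (-0.77 ± 0.062), Lamp1 (-0.38 ± 0.058) and Ctsb (-0.32 ± 0.055), which are proteins of the lysosome. Rragd fell in the same direction and Flcn did not pass. Gpnmb is in both that list and the macrophage markers, and did not pass. Macrophages express lysosomal genes too, and the lipid-associated macrophage markers had lower sums in LPD livers, as given above; their part was not tested. Of 10 p53 targets 3 rose and 5 fell (median -0.34). Among those that fell Eda2r (-1.65 ± 0.20), Plk2 (-0.81 ± 0.070) and Zmat3 (-0.61 ± 0.089) had the smallest p. The risers were Cdkn1a (1.03 ± 0.18), Trp53inp1 (0.90 ± 0.15) and Gdf15 (0.50 ± 0.18), and Sesn1 was lower.

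Of 10 FOXO genes and targets 4 rose and 0 fell by edgeR (median 0.30), with 0 lower at an unadjusted p under 0.05; limma-voom called 5 higher and 1 lower. Foxo1 (0.56 ± 0.083), Klf15 (0.53 ± 0.074), Igfbp1 (1.66 ± 0.29) and Cdkn1b (0.33 ± 0.069) rose, whereas Sesn3 was lower. Glucocorticoid receptor targets, a class that includes Ddit4 in other cells, rose in 5 of 10 cases and fell in 2 (median 0.44), with Fkbp5 (0.95 ± 0.087), Tsc22d3 (0.89 ± 0.13) and Zbtb16 (1.58 ± 0.20) having the smallest p. The pair that fell, Mt1 (-0.49 ± 0.12) and Mt2 (-0.71 ± 0.18), encode metallothioneins. Tat (1.38 ± 0.21) is in both the glucocorticoid receptor list and the hepatocyte markers, and is counted among the risers of each. For the FOXO list, 4 of 10 called by edgeR was close to the 39.9% called either way over all genes tested. Shares by direction over all genes were 20.7% higher and 19.2% lower. These lists were compiled for this comparison with earlier results of the data known, and no list was tested as a set.

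Among all tested genes, those whose deviations from the diet means followed each called gene most closely over the 12 libraries were as follows, as a description with no test. For Sesn2 they were Zfp775 (Pearson r = 0.95), Rcan1 (0.92) and Dusp16 (0.90). For Ddit4 they were Kctd15 (0.94), Slc16a6 (0.91) and Cln8 (0.88). Sesn3 was followed by Lpp (0.93), Themis (0.87) and Tcaf2 (0.87), and Sesn1 by Fhdc1, Dgkz and Inpp5k (0.93 each). Deptor was followed by Rasl11b (0.96), Syne3 (0.92) and Qdpr (0.91), and Rragd by Tnfrsf26 (0.95), Cd38 (0.93) and Prkcz (0.93). Each was picked as one of the highest among 13768 genes, over libraries that share depth and diet group. Between the diets 3 of these 18 genes were called higher in LPD (Slc16a6, Cln8 and Dusp16), 7 lower and 8 neither. The 7 were Fhdc1, Dgkz, Lpp, Themis, Qdpr, Cd38 and Prkcz. Qdpr, which followed Deptor, was lower in LPD (-0.55), whereas Deptor was higher. Over all genes tested 20.7% were called higher and 19.2% lower.

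The diet calls did not hang on the library with conflicting labels. Without LPD replicate 1 the log2 fold changes were 2.04 for Ddit4, 1.44 for Sesn2, 0.32 for Deptor, -0.81 for Sesn3, -1.07 for Rragd and -0.43 for Sesn1, each still called. Without LPD replicates 2 and 5 they were 2.13, 1.51, 0.27, -0.79, -0.74 and -0.32, in the same gene order, and called as well.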

How the data were processed

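Liver RNA of 12 ob/ob mice was measured by bulk RNA sequencing from TRIzol-extracted, DNase-treated RNA and Illumina TruSeq libraries, per the labels' protocols. The deposited table holds expected counts, 1 column per library, not scaled by the authors. The tools TopHat and DESeq2 and the build mm10 are named in the submitters' processing notes; which program counted reads, with which annotation and strand setting, is not given there. Of the nonzero values of a library 17.1% to 18.9% were not whole, so counts were rounded. Of all rows, 1542 with 0.214% of the counts had no symbol.

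Analysis used R 4.3.3 and edgeR 4.0.16. Its steps were filterByExpr (minimum count 10, minimum total 15, 13768 genes kept), TMM scaling and the quasi-likelihood F test of LPD against SPD with no covariate. Benjamini-Hochberg adjustment was over all tested genes. The same steps were also run on counts simulated from the means and dispersions of these data, and that outcome is not given here. SE is the absolute log2 fold change over the square root of F. CPM are TMM-scaled; levels between genes were compared per kilobase of the deposited length column. Log2 CPM for components and likeness had a prior count of 2. Coordinates are GENCODE M21 (GRCm38) and promoters RefSeq (GRCm38.p6). A symbol with more than 1 row (Ddit3) used the row with most counts.

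The genes, lists, markers and tests were chosen with earlier results of these data known. The text names the 10 genes, up to 3 called genes of smallest adjusted p per list and a fixed set of pathway genes. It also names the 3 genes that followed each called gene most closely, picked by their values in these data. Chosen after their values were seen were Fgf21, Ddit3, Lars, Sar1b, Bmt2, Castor1, Nprl2, Tti2, Ulk1 and Gpnmb. So were Lpin1, Cdkn1a, Trp53inp1, Gdf15, Cdkn1b, Mt1, Mt2, Vldlr, Stbd1, Gpt2, Cebpb and Rragb. The markers named singly (albumin, Tat, Trem2, Spp1 and Fabp5) were also chosen in that way. Alternatives were DESeq2 size factors, upper quartile scaling, no filter, a filter of 1 CPM in 6 libraries, DESeq2 1.42.0 (Wald test), limma 3.58.1 (voom with sample weights), a block on replicate number, leaving out each library in turn, leaving out LPD replicates 2 and 5 together, and using LP4 and SP1 libraries alone. The labels give 6 mice per diet. Every value column of the table belonged to a sample. No pair of libraries of a diet agreed within sampling noise (chi-square per gene 7.98 to 44.7 over genes with a summed count of at least 20).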

Additional observations from a re-analysis of the deposited data

Results flagged for a closer look

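Among 92 sets of 6 livers, for the 46 genes named by rule, 4 held a liver whose gap to the next was large against the whole range of its diet; chance gives about 1 in 20. For Eif4ebp1, SPD replicate 3 was lowest at 24.2 CPM, with the other SPD livers at 32.9 to 36.9 CPM. For Eif4ebp3, LPD replicate 4 was highest at 9.47 CPM, with the other LPD livers at 5.66 to 7.07 CPM. For Klf15, SPD replicate 3 was highest at 86.0 CPM, with the others at 66.4 to 73.8 CPM. For Fkbp5, LPD replicate 1 was lowest at 147 CPM, with the other LPD livers at 194 to 219 CPM.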

How the results depend on the processing

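The 3 rises and 3 falls among the 10 genes were called under every alternative run except that Sesn1 was not called with LP4 and SP1 libraries alone, where 3 rose and 2 fell. The log2 fold change over the alternatives was 1.69 to 2.13 for Ddit4, 1.29 to 1.52 for Sesn2, 0.27 to 0.35 for Deptor, -0.84 to -0.78 for Sesn3, -1.11 to -0.74 for Rragd and -0.45 to -0.32 for Sesn1. Eif4ebp1 turned positive without LPD replicates 2 and 5 (0.0074) and with LP4 and SP1 libraries alone (0.076); the cause was not tested. With 1 library left out Fnip1 was at -0.088 to 0.024 and Rptor at -0.073 to 0.017, so both changed sign. LP4 and SP1 libraries alone, 8 of 12, called 1827 genes higher and 1693 lower, and 9 pathway genes higher and 5 lower. With 1 library left out the genes called were 2555 to 2803 higher and 2391 to 2653 lower, and the pathway genes 13 to 17 higher and 6 to 9 lower. Of 756 comparisons for 36 other named genes 718 kept their call and direction, 27 lost the call, 4 gained it and 7 changed sign. Replicate numbers are shared by the diets, but same-numbered livers did not deviate together (r = -0.05 to 0.10 over genes; 1 of 6 correlated best with its own number), and with the replicate block 2668 genes were higher and 2562 lower, 3 and 3 of them among the 10. With that block Seh1l (adjusted p = 0.0596), Tfeb (0.0553) and Eif4e (0.0522) were not called, and Fnip2 was called lower (0.024). Depth limits Rragd most, at 47 to 241 counts per library.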
